A study of Mus musculus with 6 samples.

Results

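Macroautophagy delivers cytoplasm and organelles to the lysosome in double-membrane autophagosomes. The ULK complex starts the process, the class III PI3-kinase complex marks the forming membrane with PI3P, ATG9 and ATG2 supply it with lipid, and the ATG12–ATG5–ATG16L1 conjugate attaches ATG8 proteins (LC3 and GABARAP) to its lipids. Receptors link cargo to ATG8 proteins, and the finished autophagosome fuses with the lysosome. In the heart this pathway is best known for clearing damaged mitochondria from cardiomyocytes (CMs). Here 43 genes of the pathway were described, chosen by name and grouped by step, of the 16448 genes listed in an RNA-seq table of adult ventricular CMs. They comprise 5 genes of initiation, 6 of nucleation, 6 of the ATG9, ATG2 and WIPI group, 9 of conjugation including the ATG4 proteases, 5 ATG8 genes, 7 genes of cargo receptors and PINK1, 2 of transcription factors and 3 of fusion and the lysosome, the last including *Tecpr1*.

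The study examined CMs in which *Cpt1b*, the muscle isoform of the enzyme that admits long-chain fatty acids to mitochondria, was inactivated. The 3 Cpt1bcKO samples came from αMHC-Cre pos/+; *Cpt1b* fl/fl mice, and the 3 CtrlCre samples from mice that carried αMHC-Cre without the floxed allele, so both groups express Cre. The αMHC promoter drives Cre in CMs, and deletion therefore precedes adulthood in these cells. All mice were C57BL/6 and 8 to 12 weeks old. CMs were released by enzymatic perfusion, the atria were removed, and total RNA was sequenced.

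The values are read counts per gene that the authors scaled by size factors and then rounded, here called normalized counts. They summed to between 13393411 and 31722217 per sample, and the mitochondrial rRNA gene *mt-Rnr2* took 63.2 to 64.6% of the sum in CtrlCre and 61.8 to 80.8% in Cpt1bcKO, with the highest share in Cpt1bcKO sample 3. With rRNA and mitochondrial transcripts left out the sums were 3146414 to 3551692. *Cpt1b* itself had 1861, 893 and 1443 normalized counts in CtrlCre and 211, 353 and 285 in Cpt1bcKO (log2 fold change −2.27, limma adjusted p = 0.00338), which counts the whole gene and not only the floxed exons. The 10 ventricular CM markers together were the most abundant of the marker lists examined, at 587936 to 694383 in CtrlCre and 382121 to 614438 in Cpt1bcKO, and the atrial markers *Myl7* and *Myl4* together reached at most 121. All 10 ventricular markers had a negative log2 fold change, the largest of them *Tnni3* (−0.996, adjusted p = 0.136) and *Pln* (−0.85, adjusted p = 0.0678), and none passed the adjusted test, although *Tnni3* and *Pln* did without Cpt1bcKO sample 1 (adjusted p = 0.026 and 0.00694). *Tnni3* and *Pln* also passed with a replicate block (limma adjusted p = 0.0010 and 0.0022). The 8 fibroblast markers summed to 498, 785 and 772 in CtrlCre and to 1338, 1289 and 1108 in Cpt1bcKO. All 7 of them that were tested reached an unadjusted p below 0.05 on the higher side, and *Col1a1* and *Lum* an adjusted one. These 2 calls were lost without CtrlCre sample 3 (adjusted p = 0.0516 for *Col1a1* and 0.0643 for *Lum*) or without Cpt1bcKO sample 2 (0.0859 and 0.072), that of *Lum* also without CtrlCre sample 2 (0.0626), and that of *Col1a1* with 1 prior variance for all genes (0.0698). In bulk samples such as these, fewer cells of a type and less RNA per cell cannot be told apart.

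All 43 autophagy genes were in the table and passed the filter of at least 10 normalized counts in at least 3 samples, with values between 19 and 2084. In *Cpt1b*-deficient CMs *Tecpr1* and *Optn* rose and *Pink1* fell at an adjusted p below 0.05 (limma on log2(normalized count + 1), Benjamini–Hochberg over 11364 genes). These 3 genes make up 6.98% of the list, against 1.57% of all genes tested (0.66% higher, 0.906% lower). *Tecpr1* was named in choosing the list, and without it the share was 2 of 42 genes (4.76%). The whole list was chosen with earlier results of these data known, so neither share is free of that choice. At an unadjusted p below 0.05 there were 5 genes, 3 higher and 2 lower, or 11.6% of the list, against 13.9% of all genes (6.66% higher, 7.22% lower). Groups were fully separated in 9 genes, 5 higher and 4 lower, or 20.9% of the list, against 18.7% of all genes (9.13% higher, 9.6% lower), and they overlapped in the other 34. The shares at an unadjusted p and by separation lie near those of all genes.

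Among the 43 genes, 17 had a positive and 26 a negative log2 fold change, and the median was −0.06, beside −0.0013 for all genes. The median size of the log2 fold change, regardless of sign, was 0.14 for the list and 0.25 for all genes. A total of 29 genes lay within 0.25 of no change on the log2 scale. The direction of the median depended on scaling: with samples scaled to the sum that leaves out rRNA and mitochondrial transcripts (nuclear-sum scaling) it was 0.05, with 25 positive and 18 negative, while the median of all genes moved to 0.11. The direction also depended on single samples. Without CtrlCre sample 1 the median of the list was 0.0067, with 23 positive and 20 negative, and without CtrlCre sample 3 it was −0.17, with 10 and 33. The normalized counts of the 42 genes other than *Tecpr1* summed to 16604, 14515 and 13945 in CtrlCre and to 15548, 13482 and 13936 in Cpt1bcKO. These sums overlapped between the groups. The plot of log2 fold changes by pathway step shows how far *Tecpr1* stood from the others.

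**Figure D1:**
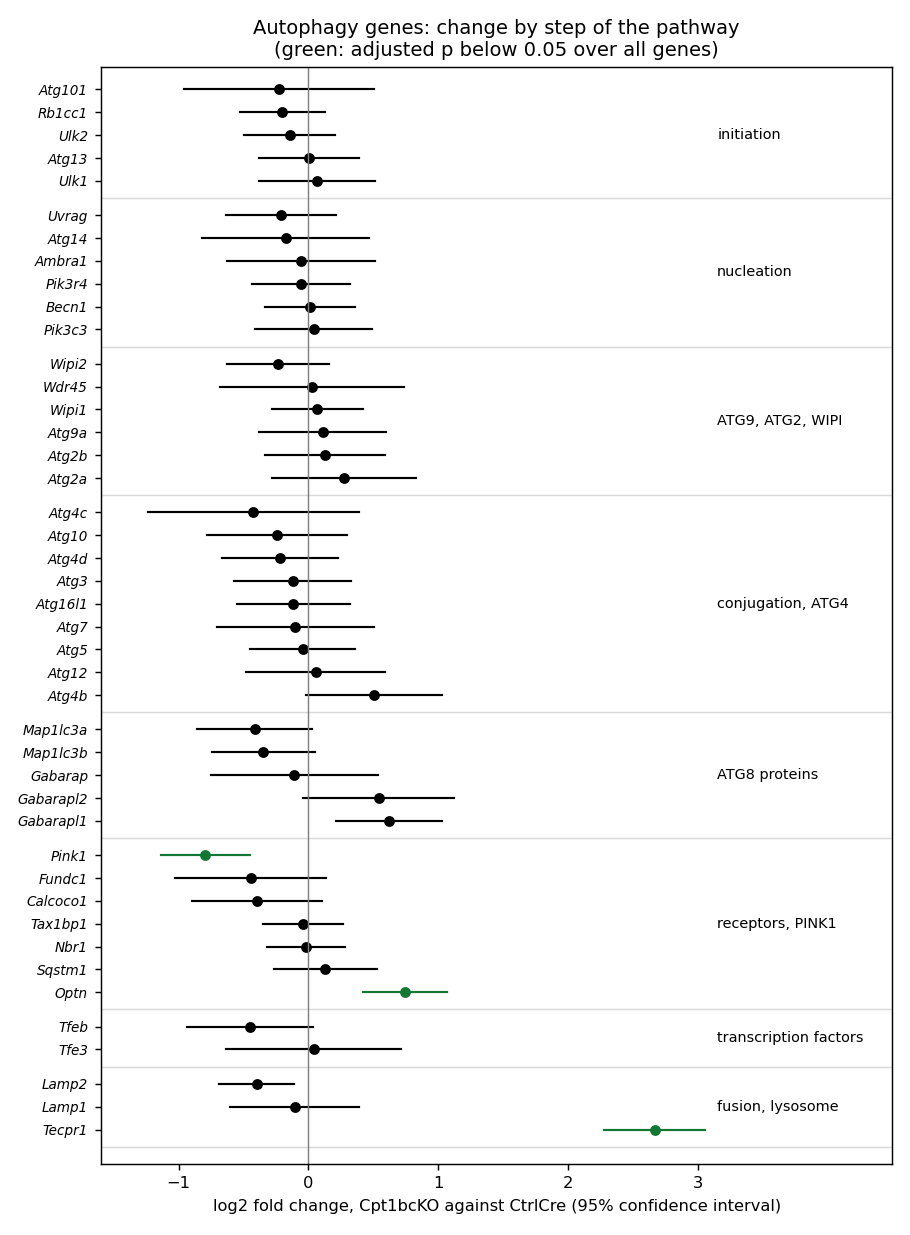
Log2 fold change (x axis, Cpt1bcKO against CtrlCre, 3 samples each) of the 43 autophagy genes, ordered within the steps of the pathway; points are limma estimates, lines 95% confidence intervals, and green marks an adjusted p below 0.05. *Tecpr1* lies at 2.67, *Optn* at 0.74 and *Pink1* at −0.79, and most other intervals span 0.

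*Tecpr1* (ENSMUSG00000066621, chromosome 5, 144194442 to 144223615, minus strand, mm10/GRCm38) had the largest change of the list. It encodes tectonin beta-propeller repeat containing 1, a protein that binds the ATG12–ATG5 conjugate and PI3P, acts in the fusion of autophagosomes with lysosomes and takes part in lipidation of LC3 on damaged lysosomes. It had 77, 86 and 84 normalized counts in CtrlCre and 535, 624 and 441 in Cpt1bcKO. The lowest Cpt1bcKO sample was more than 5 times the highest CtrlCre sample. The mean rose from 82.3 ± 4.73 to 533 ± 91.5 (SD, n = 3 each), a ratio of 6.48, with a log2 fold change of 2.67 (SE 0.17, 95% confidence interval 2.28 to 3.06, limma adjusted p = 0.000151). In each of the 14 alternative analyses the adjusted p stayed below 0.05 (at most 0.014), with log2 fold changes of 2.55 to 2.80. With any single sample left out, the limma adjusted p was at most 0.00307.

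Per length, *Tecpr1* was among the lowest of the list in control CMs. Its 6.45 ± 0.37 normalized counts per kb of annotated exon in CtrlCre ranked 41 of 43. The length used counts every base in any annotated exon of the gene, 12772 for *Tecpr1*, and the rank depends on this choice. *Sqstm1* had the highest mean at 493 ± 118, with *Pink1* within that SD at 488 ± 36.7, and *Tfe3* the lowest at 2.88 ± 0.51. None of the exonic bases of *Tecpr1* lie in an exon of another gene of GENCODE vM21. *Tecpr2*, its paralogue, which acts in the same late steps, had 42, 50 and 56 normalized counts in CtrlCre and 63, 72 and 61 in Cpt1bcKO. The groups did not overlap, but the log2 fold change of *Tecpr2* was 0.40 (limma adjusted p = 0.446). The fibroblast markers given above moved in the same direction as *Tecpr1* (median log2 fold change 1.12, range 0.47 to 1.46, 7 of 8 tested), and their part in its rise was not tested. Endothelial markers summed to 1241, 2356 and 2620 in CtrlCre and 2639, 2616 and 2308 in Cpt1bcKO. All 8 had a positive log2 fold change (median 0.34), with *Tie1* at 0.61 (limma adjusted p = 0.266) and at 0.36 without CtrlCre sample 1. Mural markers summed to 1108, 1792 and 2300 against 1739, 1548 and 1174, with 3 of 6 tested markers positive and 3 negative. They ran from *Acta2* at −1.20 (limma adjusted p = 0.0835, 0.0217 without Cpt1bcKO sample 1 and 0.0025 with a replicate block) to *Myh11* at 0.74. Leukocyte markers summed to 133, 101 and 173 against 135, 152 and 142. The part of the endothelial, mural and leukocyte markers in the rise of *Tecpr1* was not tested either.

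**Figure D2:**
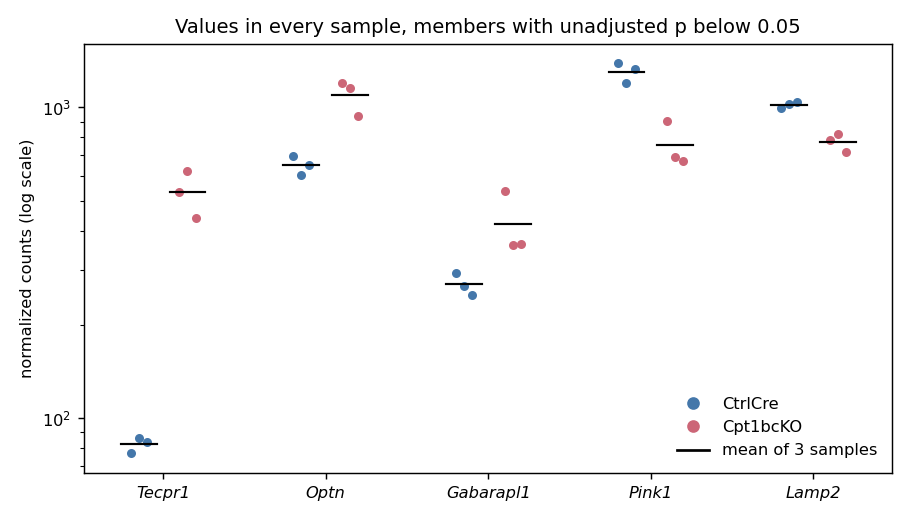
Normalized counts (y axis, log scale) in each of 3 CtrlCre and 3 Cpt1bcKO samples for the 5 autophagy genes with an unadjusted p below 0.05; points are samples and lines group means. In none of the 5 do the groups overlap, and the gap is widest for *Tecpr1*.

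The genes on either side of *Tecpr1* were examined because a change in RNA can extend over a locus. *Lmtk2*, a kinase gene on the opposite strand, had 244, 249 and 232 normalized counts in CtrlCre and 191, 224 and 264 in Cpt1bcKO (log2 fold change −0.11, 95% confidence interval −0.48 to 0.27, limma adjusted p = 0.825). *Bri3* on the other side had 122, 73 and 67 against 177, 99 and 80 (log2 fold change 0.41, interval −0.30 to 1.12, adjusted p = 0.619), with a log2 fold change of 0.079 without Cpt1bcKO sample 1 and 0.67 without CtrlCre sample 1. In both genes the groups overlapped. *Bhlha15*, between *Lmtk2* and *Tecpr1*, had 0, 3 and 0 against 1, 8 and 6. The antisense RNA gene *2900089D17Rik*, which overlaps *Bri3* on the opposite strand, had 1, 1 and 0 against 5, 13 and 3, so that its groups were separated in the same direction as those of *Tecpr1*. Neither of these 2 genes passed the filter on low values, and neither was tested. The ratio of *Tecpr1* to *Lmtk2* within a sample was 0.316 to 0.362 in CtrlCre and 1.67 to 2.80 in Cpt1bcKO.

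**Figure D3:**
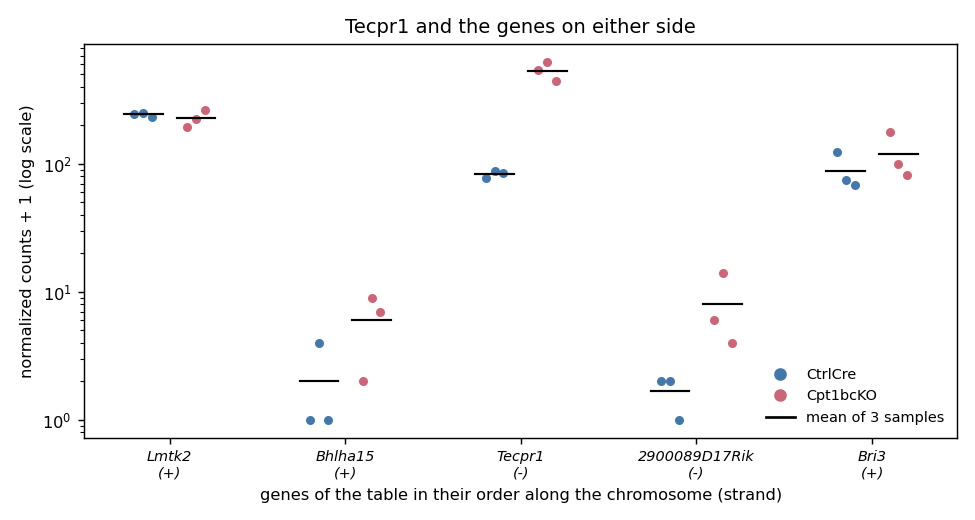
Normalized counts + 1 (y axis, log scale) in each sample of *Tecpr1* and the 2 annotated genes on each side in the order of the chromosome (x axis, strand in brackets); points are samples and lines group means of 3. *Tecpr1* and, at values of at most 13, *2900089D17Rik* are separated by group and higher in Cpt1bcKO, whereas *Lmtk2*, *Bhlha15* and *Bri3* overlap.

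The promoters of the 3 genes that passed the adjusted test are shown with that of *Lamp1*, the gene of the list with the most E-boxes in this window, as a comparison. They are RefSeq sequences of build GRCm38.p6, 250 bases before to 50 after the annotated start, read 5′ to 3′ on the strand of the gene. Capitals mark each E-box, CACGTG, the core of the sites bound by TFEB and TFE3, which activate genes of autophagy and lysosomes. *Tecpr1* lies at chr5:144223566-144223865 (minus), *Optn* at chr2:5064068-5064367 (minus), *Pink1* at chr4:138326247-138326546 (minus) and *Lamp1* at chr8:13158911-13159210 (plus). The start used was 5064117 for *Optn* and 138326296 for *Pink1*, against 5064045 and 138326307 in the gene coordinates given below. The *Optn* window therefore holds no base of the gene as placed there.
Tecpr1: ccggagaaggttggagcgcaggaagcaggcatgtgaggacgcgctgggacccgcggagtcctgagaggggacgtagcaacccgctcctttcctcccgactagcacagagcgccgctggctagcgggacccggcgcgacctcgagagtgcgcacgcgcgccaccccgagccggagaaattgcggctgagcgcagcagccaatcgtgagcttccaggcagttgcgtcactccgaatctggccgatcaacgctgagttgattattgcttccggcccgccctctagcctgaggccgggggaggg
Optn: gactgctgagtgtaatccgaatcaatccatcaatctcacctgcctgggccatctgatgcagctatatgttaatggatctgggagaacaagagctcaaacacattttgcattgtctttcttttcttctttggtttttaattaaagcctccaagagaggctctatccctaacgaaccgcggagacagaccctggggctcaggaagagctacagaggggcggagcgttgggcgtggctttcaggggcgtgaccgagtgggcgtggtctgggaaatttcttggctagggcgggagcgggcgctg
Pink1: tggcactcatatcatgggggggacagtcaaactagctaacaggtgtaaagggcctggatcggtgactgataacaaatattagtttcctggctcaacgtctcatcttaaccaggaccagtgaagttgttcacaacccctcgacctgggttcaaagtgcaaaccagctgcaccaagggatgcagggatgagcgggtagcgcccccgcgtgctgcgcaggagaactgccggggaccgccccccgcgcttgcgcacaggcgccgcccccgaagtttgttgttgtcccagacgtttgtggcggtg
Lamp1: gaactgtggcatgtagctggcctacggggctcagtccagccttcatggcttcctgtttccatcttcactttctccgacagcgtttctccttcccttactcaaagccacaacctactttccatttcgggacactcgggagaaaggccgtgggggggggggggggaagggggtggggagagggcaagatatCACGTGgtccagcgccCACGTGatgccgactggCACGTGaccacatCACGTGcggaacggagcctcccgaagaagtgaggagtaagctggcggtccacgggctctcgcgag
The *Tecpr1* promoter had the highest GC content of the 4, 66.7%, with 32 CpG, against 52.7% and 13 CpG in *Optn*. *Lamp1* held 4 E-boxes, which began 61, 45, 28 and 15 bases before the start, and the promoters of *Tecpr1*, *Optn* and *Pink1* held none. On either strand an E-box was found in 5 of 37 autophagy genes with a promoter in the table (*Atg3*, *Atg5*, *Atg7*, *Atg14* and *Lamp1*; 13.5%), against 8.09% of all 27025 genes. The palindromic CLEAR element of lysosomal genes, which contains the E-box and 2 further bases on each side, was found in 0 of the 37 and in 0.37% of all genes. Only this exact sequence was sought, so variants of the element were not counted. With 37 genes, 0 lies near 0.37%. None of the 5 genes with an E-box passed the test at an unadjusted p below 0.05, against 13.9% of all genes tested. With 5 genes, 0 lies near that share. The forkhead sequence GTAAACA was found on neither strand in any of the 37 genes (0) and in 4.05% of all genes.

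Cargo receptors tether ubiquitinated proteins or mitochondria to ATG8 proteins, and PINK1 is the kinase that marks depolarized mitochondria for this. *Optn* (ENSMUSG00000026672, chromosome 2, 5020642 to 5064045, minus), which encodes the receptor optineurin, had 699, 606 and 652 normalized counts in CtrlCre and 1201, 1151 and 938 in Cpt1bcKO. It rose 1.68-fold in its group mean (log2 fold change 0.74, SE 0.15, limma adjusted p = 0.0354). *Pink1* (ENSMUSG00000028756, chromosome 4, 138313409 to 138326307, minus) had 1384, 1194 and 1332 against 903, 693 and 674. Its mean was 1.72-fold lower in Cpt1bcKO (log2 fold change −0.79, SE 0.15, limma adjusted p = 0.0331). The 2 genes thus moved in opposite directions, and the ratio of *Optn* to *Pink1*, a pair chosen after their values were seen, was 0.505, 0.508 and 0.489 in CtrlCre and 1.33, 1.66 and 1.39 in Cpt1bcKO. The fibroblast markers were higher (7 of 7 tested, median log2 fold change 1.12) and the ventricular CM markers lower (10 of 10, median −0.44, 0 of them at an adjusted p below 0.05) in the same samples, and their part in the changes of *Optn* and *Pink1* was not tested.

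These 2 calls were less firm than that of *Tecpr1*. With 1 sample left out, *Optn* was called only without Cpt1bcKO sample 1 or without Cpt1bcKO sample 3, and its limma adjusted p otherwise rose to 0.0674 without CtrlCre sample 1, 0.144 without CtrlCre sample 2, 0.136 without CtrlCre sample 3 and 0.201 without Cpt1bcKO sample 2. *Pink1* was called only without Cpt1bcKO sample 1, and its adjusted p rose to 0.109, 0.0885 and 0.138 without CtrlCre samples 1, 2 and 3 and to 0.193 and 0.0975 without Cpt1bcKO samples 2 and 3. *Pink1* also lost its call under nuclear-sum scaling (log2 fold change −0.68, adjusted p = 0.0757). With 1 prior variance for all genes both calls were lost (adjusted p = 0.158 for *Optn* and 0.156 for *Pink1*). The directions were the same in all 14 alternatives.

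The other receptors did not pass the test. *Sqstm1*, which encodes p62 and binds ubiquitinated cargo, had 2084, 1568 and 1307 normalized counts in CtrlCre and 1949, 1610 and 1788 in Cpt1bcKO (log2 fold change 0.13, limma adjusted p = 0.794), and the groups overlapped. The ubiquitin-binding receptors *Nbr1* and *Tax1bp1* had log2 fold changes of −0.02 and −0.04. *Calcoco1*, a receptor for the endoplasmic reticulum and Golgi, and *Fundc1*, a receptor in the outer mitochondrial membrane, had −0.40 and −0.44 (adjusted p = 0.469 and 0.488), with overlapping groups.

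ATG8 proteins are the ubiquitin-like proteins that are attached to phosphatidylethanolamine on the autophagosome. *Gabarapl1* (ENSMUSG00000030161, chromosome 6, 129533160 to 129542346, plus) had 292, 267 and 249 normalized counts in CtrlCre and 537, 361 and 364 in Cpt1bcKO, with no overlap (log2 fold change 0.62, SE 0.18, 95% confidence interval 0.21 to 1.03, limma unadjusted p = 0.00698, adjusted p = 0.159). *Gabarapl2* had 76, 63 and 64 against 80, 81 and 148, also without overlap (log2 fold change 0.54, interval −0.04 to 1.12, adjusted p = 0.392, and log2 fold change 0.25 without Cpt1bcKO sample 3). The values of these 2 genes of the GABARAP branch were thus higher in every Cpt1bcKO sample, most in sample 1 for *Gabarapl1* and in sample 3 for *Gabarapl2*. *Gabarap* itself had 631, 404 and 392 against 647, 446 and 277, and the groups overlapped (log2 fold change −0.11, interval −0.75 to 0.54). Its sign turned under nuclear-sum scaling.

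In the LC3 branch *Map1lc3b* had 236, 187 and 170 normalized counts in CtrlCre and 145, 149 and 168 in Cpt1bcKO. The groups were separated by 2 normalized counts (log2 fold change −0.35, interval −0.75 to 0.05, limma adjusted p = 0.424). *Map1lc3a* had 486, 356 and 371 against 390, 254 and 274, with overlap in 1 Cpt1bcKO sample (log2 fold change −0.41, interval −0.86 to 0.03, adjusted p = 0.395). None of the 5 ATG8 genes passed the adjusted test, although *Gabarapl1* did when a replicate block was added (limma adjusted p = 0.027). Within each sample, the ratio of *Gabarapl1* to *Map1lc3a* was 0.601, 0.75 and 0.671 in CtrlCre and 1.38, 1.42 and 1.33 in Cpt1bcKO, and that of *Gabarapl1* to *Map1lc3b* was 1.24, 1.43 and 1.46 against 3.70, 2.42 and 2.17. The ratio of *Gabarapl1* to *Gabarap*, of its own branch, was also separated, at 0.463, 0.661 and 0.635 against 0.83, 0.809 and 1.31, whereas that to *Gabarapl2* overlapped, at 3.84, 4.24 and 3.89 against 6.71, 4.46 and 2.46. These ratios do not depend on the size factor of a sample, and the pairs were chosen after their values were seen, so no test is given. Of the exonic bases of *Gabarapl1*, 28.3% lie in exons of *Gm44243* or *1700101I11Rik*, which had at most 12 normalized counts in any sample.

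**Figure D4:**
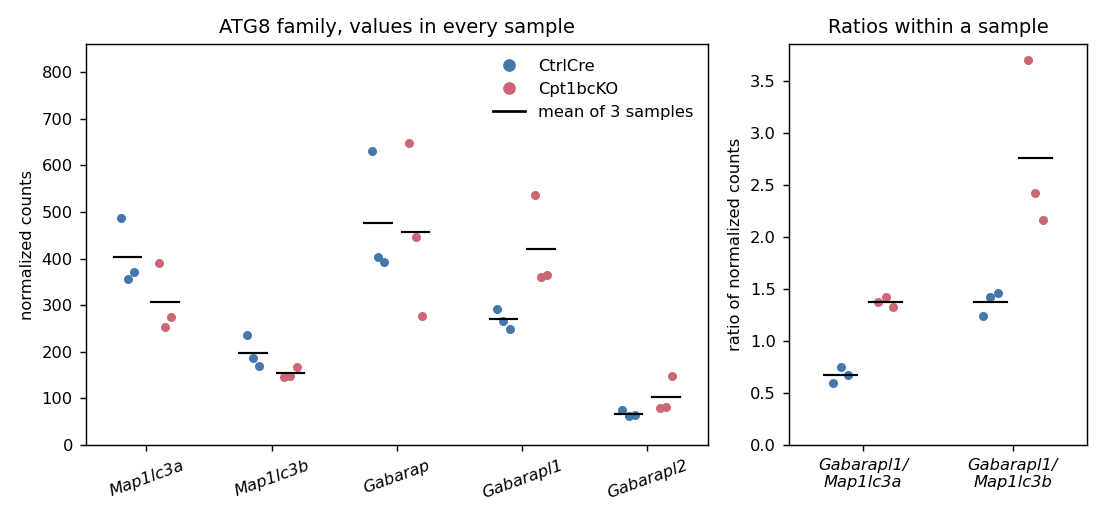
Left, normalized counts (y axis) of the 5 ATG8 genes in each of 3 CtrlCre and 3 Cpt1bcKO samples; right, the ratio of *Gabarapl1* to each of 2 LC3 genes within a sample (y axis); points are samples and lines group means. *Gabarapl1* and *Gabarapl2* are higher and *Map1lc3b* is lower in every Cpt1bcKO sample, and the ratio to *Map1lc3a* lies at 0.601 to 0.75 in CtrlCre and 1.33 to 1.42 in Cpt1bcKO.

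The lysosomal membrane proteins LAMP1 and LAMP2 are needed for fusion and for the stability of the lysosome. *Lamp2* (ENSMUSG00000016534, chromosome X, 38401357 to 38456454, minus) had 996, 1024 and 1042 normalized counts in CtrlCre and 784, 823 and 717 in Cpt1bcKO, without overlap and with little spread (log2 fold change −0.40, SE 0.13, 95% confidence interval −0.69 to −0.11, limma unadjusted p = 0.0113, adjusted p = 0.196). *Lamp1* had 1397, 1205 and 952 against 1519, 1017 and 831 (log2 fold change −0.11, adjusted p = 0.874). Its groups overlapped, and its sign turned under nuclear-sum scaling. *Tfeb*, the transcription factor gene, had 64, 70 and 80 against 61, 48 and 47, without overlap (log2 fold change −0.45, interval −0.94 to 0.03, adjusted p = 0.394), and the related *Tfe3* was at 0.04.

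The early steps showed no gene at an unadjusted p below 0.05. In initiation the log2 fold changes of the kinase genes *Ulk1* and *Ulk2* were 0.06 and −0.14, and those of the kinase's partners *Atg13*, *Rb1cc1* and *Atg101* lay between −0.23 and 0.01. *Rb1cc1*, which encodes the scaffold FIP200, had 1354, 1338 and 1253 normalized counts in CtrlCre and 1195, 961 and 1302 in Cpt1bcKO (log2 fold change −0.20, limma adjusted p = 0.593). Only Cpt1bcKO sample 3 reached the CtrlCre range. In nucleation the 6 genes lay between −0.21 (*Uvrag*) and 0.04 (*Pik3c3*, the lipid kinase VPS34). *Becn1*, which encodes the Beclin 1 subunit, was nearly level, with 165, 187 and 182 against 181, 185 and 173 (log2 fold change 0.01, 95% confidence interval −0.33 to 0.36). Exons of *Cntd1* cover 43.9% of its exonic bases, and reads on more than 1 gene were excluded from the counts. Of the other genes of the list whose values are given, *Rb1cc1*, *Map1lc3b*, *Sqstm1*, *Optn* and *Lamp1* overlap an annotated gene of the opposite strand in the table. So does *Gabarapl1*, with *1700101I11Rik* as given above. The partners *4732440D04Rik*, *Zcchc14* and *Grtp1* had limma adjusted p = 0.984, 0.635 and 0.73, and *Mrnip* and *4930551O13Rik* had at most 9 and 7 normalized counts in any sample. Of the exonic bases of *Pink1*, 6.7% lie in exons of *Gm27646* or *Mir7019* of GENCODE vM21.

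The lipid-supply group had 5 positive values and 1 negative. *Atg2a*, *Atg2b* and *Atg9a*, for the lipid transfer proteins and the scramblase, were at 0.27, 0.12 and 0.11 on the log2 scale, all with overlapping groups. *Wipi1*, one of the PI3P readers, had 432, 328 and 363 normalized counts in CtrlCre and 421, 395 and 356 in Cpt1bcKO (log2 fold change 0.07, limma adjusted p = 0.888). *Wipi2*, the reader that recruits ATG16L1, was at −0.24 (adjusted p = 0.597) and *Wdr45* at 0.03.

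In the conjugation system 7 of 9 genes had a negative log2 fold change, with a median of −0.11. The genes of the conjugate itself, *Atg5*, *Atg12* and *Atg16l1*, were at −0.04, 0.06 and −0.11, the E1 enzyme gene *Atg7* at −0.10 and the E2 enzyme genes *Atg10* and *Atg3* at −0.24 and −0.12. *Atg3* had 181, 138 and 167 normalized counts in CtrlCre and 128, 134 and 189 in Cpt1bcKO (limma adjusted p = 0.838). The proteases that process ATG8 proteins differed in sign. *Atg4b*, the main protease for LC3, had 44, 40 and 43 against 50, 59 and 75, higher in every Cpt1bcKO sample (log2 fold change 0.51, interval −0.02 to 1.03, adjusted p = 0.373), while *Atg4c* and *Atg4d* were at −0.42 and −0.22 with overlapping groups. Across the 26 genes of the list whose values are not given in full, the log2 fold changes ran from −0.44 to 0.27, the smallest limma adjusted p was 0.469, and the 95% confidence intervals reached from −1.24 to 0.83, so changes within these bounds were not resolved by 3 against 3 samples.

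Further genes of the pathway were read in 6 lists of 139 genes in all, of which 134 were in the table and 129 were tested. The adjusted test was passed by 2 of them (1.55%, close to the 1.57% of all genes), both on the higher side and both in the list of mTORC1 and AMPK control, the kinases that hold back and activate ULK1. *Mtor*, the kinase itself, had 380, 489 and 458 normalized counts in CtrlCre and 793, 1016 and 809 in Cpt1bcKO (log2 fold change 0.98, SE 0.16, limma adjusted p = 0.0151). *Fnip2*, which encodes a partner of folliculin and AMPK, had 148, 117 and 202 against 400, 444 and 580 (log2 fold change 1.62, SE 0.22, adjusted p = 0.00719). Neither gene overlapped between the groups, and the other 34 genes of the list did not pass. The mTORC1 subunit gene *Rptor* was at 0.05, and *Stk11*, for the AMPK kinase LKB1, had 234, 202 and 205 against 158, 156 and 180 (log2 fold change −0.37, adjusted p = 0.337). With 1 sample left out, *Mtor* lost its call without CtrlCre sample 1 (adjusted p = 0.0536), CtrlCre sample 3 (0.0654) or Cpt1bcKO sample 2 (0.103), and *Fnip2* only without Cpt1bcKO sample 2 (0.051). Both calls were also lost with 1 prior variance for all genes (adjusted p = 0.112 and 0.0698).

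No gene passed the adjusted test in the lists of lysosomal enzymes and membrane proteins, V-ATPase, fusion, further core genes and mitophagy. With a replicate block *Ctsl*, *Bnip3* and *Atp6v1h* did (limma adjusted p = 0.0045, 0.0074 and 0.040). Among 31 lysosomal genes 20 had a positive log2 fold change (64.5%, against 49.8% of all genes). An unadjusted p below 0.05 was reached by 5 (16.1%), all on the higher side, against 13.9% of all genes in either direction and 6.66% on the higher side. The protease gene *Ctsl* was the largest of these, with 349, 271 and 231 normalized counts in CtrlCre and 634, 469 and 388 in Cpt1bcKO (log2 fold change 0.80, limma adjusted p = 0.116), followed by *Ctsz* at 0.65 (adjusted p = 0.349). The fibroblast markers were higher in the same samples (7 of 7 tested, median log2 fold change 1.12), and their part in the lysosomal values was not tested. Of 17 V-ATPase genes, whose products acidify the lysosome, *Atp6v1h* had 150, 167 and 156 against 251, 279 and 202 (log2 fold change 0.62, adjusted p = 0.136). Among 18 fusion genes *Plekhm2* was at 0.43 (adjusted p = 0.224), and the SNARE gene *Stx17* at 0.04. Of 15 further core genes *Vmp1*, a scramblase of the endoplasmic reticulum, was at 0.44 (adjusted p = 0.255) and *Tmem41b*, its relative, at −0.45 (adjusted p = 0.354). Of 12 mitophagy genes *Bnip3*, a receptor on mitochondria, had 363, 220 and 231 against 231, 108 and 94, with the highest Cpt1bcKO sample level with a CtrlCre sample (log2 fold change −0.99, adjusted p = 0.20). *Bnip3* passed without Cpt1bcKO sample 1 (adjusted p = 0.014). The medians of the 6 lists lay between −0.07 and 0.06, and the plot of autophagy genes beside related lists shows *Fnip2* and *Mtor* as the highest of them.

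**Figure D5:**
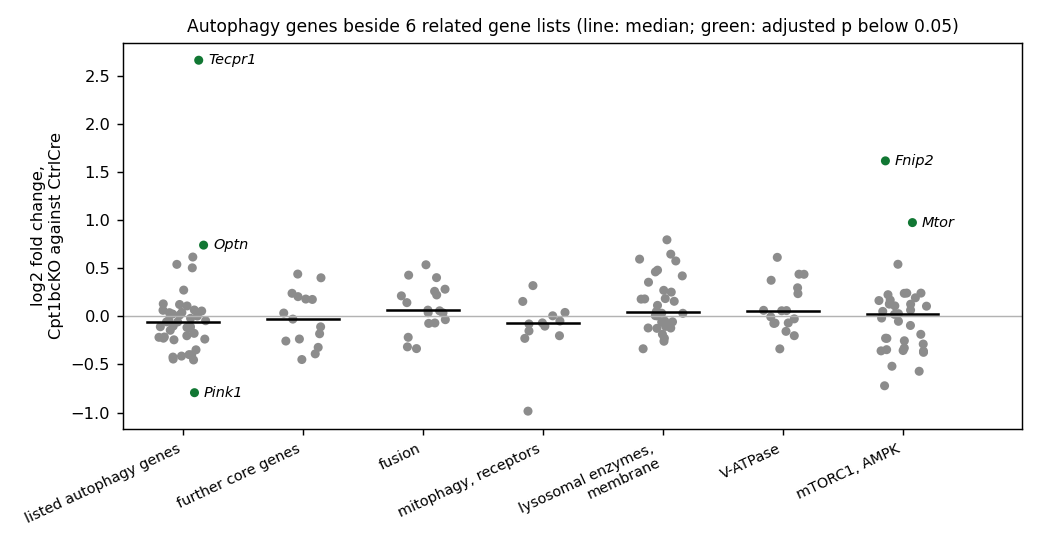
Log2 fold changes (y axis, Cpt1bcKO against CtrlCre, 3 samples each) of the 43 autophagy genes and of 129 tested genes in 6 related lists (x axis); each point is a gene, lines are list medians, and green marks an adjusted p below 0.05. The medians lie between −0.07 and 0.06, and *Tecpr1* at 2.67 is above all other genes shown.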

How the data were processed

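RNA-seq of adult CMs from 3 CtrlCre and 3 Cpt1bcKO samples was analysed. According to the study's methods and the submitters' processing notes, libraries were made with a stranded total RNA kit, reads were checked with FastQC 0.11.8, trimmed with Trimmomatic 0.36, aligned with STAR 2.5.4b to mm10 (GRCm38.p5) and counted on exons with featureCounts 1.6.0, and reads on several genes or regions were left out. Genes that share exons can therefore be undercounted. The annotation release and the use of strand in counting are not given in the sources used here. The deposited score is a normalized count, that is, the count scaled by a size factor for the sample and then rounded by the authors, who used DESeq2 1.14.1. Raw counts and the depth of each sample are therefore not known here, and a count model was not used. The table also holds group means, fold changes and p-values computed by the authors, which were not used.

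Values were transformed to log2(value + 1), which understates changes of low genes, and fitted with limma 3.58.1 (R 4.3.3; lmFit, eBayes with trend, no covariate) over 11364 genes with at least 10 in at least 3 samples, with p-values adjusted by Benjamini–Hochberg over all of them. Genes were called at an adjusted p below 0.05. An exact permutation test of 3 against 3 samples cannot go below p = 0.1 and was not used. Intervals are 95% confidence intervals of limma. The code was tested on simulated data. The members and lists were chosen with earlier results of these data known. Values in every sample are given for genes of the list at an adjusted or unadjusted p below 0.05, with no overlap between groups, of the ATG8 family, or with the highest mean in their step, and for the 2 genes on each side of *Tecpr1*. Genes of other lists are named at an adjusted p below 0.05 or as the 2 largest changes at an unadjusted one. *Tecpr2*, *Rptor*, *Stx17*, *Stk11* and *Myh11* fall outside this rule and were chosen after their values were seen. The atrial markers *Myl7* and *Myl4* also fall outside it and are the 2 of their list found among the deposited genes. Alternatives were pseudocounts of 0.5 and 5, other filters and scalings, 1 prior variance for all genes, a replicate block and leaving out each sample. Coordinates are those of the deposited table. Lengths came from GENCODE vM21, which matched 43 of 43 genes by identifier and 30 by start and end, and promoters from RefSeq (GRCm38.p6), which matched 37 by symbol. Python 3.11.15 with pandas 2.3.3 and matplotlib 3.10.9 was used for tables and plots.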

Additional observations from a re-analysis of the deposited data

How the results depend on the processing

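In all 14 alternatives *Tecpr1* was called, and 22 of the 43 genes changed sign in at least 1, all of them uncalled. *Optn* was called in 9 alternatives and *Pink1* in 7. With 1 prior variance for all genes 41 genes were called in place of 178, and of the autophagy genes 1, *Tecpr1*. With 1 sample left out, 40 to 305 genes were called, with 1 to 3 autophagy genes among them: 40 genes without Cpt1bcKO sample 2, 86, 76 and 67 without CtrlCre samples 1, 2 and 3, and 305 without Cpt1bcKO sample 1. The autophagy median then ranged from −0.17, without CtrlCre sample 3, to 0.0067, without CtrlCre sample 1. Scaled to the sum that leaves out rRNA and mitochondrial transcripts, the autophagy median was 0.054, *Gabarap* was at 0.0047, *Lamp1* at 0.0053 and *Lmtk2* at 0.0054, and of 176 genes called 102 were higher and 74 lower, in place of 75 and 103. The cause of these shifts was not tested. With 1 sample left out, log2 fold changes ran from −0.039 to 0.051 for *Becn1*, −0.40 to 0.21 for *Gabarap*, −0.35 to 0.087 for *Lamp1*, −0.023 to 0.18 for *Wipi1*, −0.025 to 0.31 for *Sqstm1* and −0.22 to 0.0096 for *Lmtk2*. Without a change of sign, they ran from −0.58 to −0.18 for *Calcoco1*, −0.70 to −0.23 for *Fundc1* and −0.45 to −0.21 for *Map1lc3b*. Those of *Rb1cc1* ran from −0.29 to −0.075, and those of *Ctsz* from 0.39 to 0.87. The depth of each sample is not known here, so its effect on the smaller changes was not tested.

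The labels do not say that a replicate number marks a shared litter or day. Deviations of same-numbered samples correlated at 0.376, 0.255 and 0.0684 across genes, which are not independent replicates. Those of differently numbered samples correlated at −0.329 to 0.147. For samples 1 and 2 the same-numbered pair correlated best, whereas CtrlCre sample 3 correlated better with Cpt1bcKO sample 2 (0.119). The numbers were not taken to pair samples, and a factor shared by number was not tested. With a replicate block 603 genes were called and 4 of the autophagy genes, *Gabarapl1* in addition (limma adjusted p = 0.027). Of the other genes named, the block added calls for *Ctsl* (adjusted p = 0.0045), *Bnip3* (0.0074), *Atp6v1h* (0.040), *Tnni3* (0.0010), *Pln* (0.0022) and *Acta2* (0.0025).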
